A study of Mus musculus with 4 samples.

Results

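CTCF peaks in gene deserts are the peaks on chromosomes 1 to 19 whose midpoint lay outside every gene of the RefSeq table and more than 100 kb from the nearest gene end. Of 24888 autosomal peaks in the medial ganglionic eminence (MGE) list, 1164 met this rule (4.68%, exact 95% Clopper-Pearson interval 4.42 to 4.95%). Of 31141 autosomal peaks in the telencephalon list, 411 did (1.32%, 1.20 to 1.45%). The rule used position alone and no measured value, and together the lists held 1575 desert peaks among 56029. CTCF binding was mapped by ChIP-seq, the sequencing of chromatin fragments recovered with an antibody, in the brain of embryonic day 13.5 mice. Each tissue gave 1 library with the CTCF antibody and 1 input library without antibody. The telencephalon is the embryonic forebrain, and the MGE is its ventral part that produces many cortical interneurons. No genotype, strain or treatment is given in the labels. The dissection text names the MGE for every sample, so the labels leave unstated how the telencephalon was dissected and whether it contained the MGE. The tissues were prepared with different library kits, hence tissue and kit cannot be told apart. The track names of the lists also end in different, unexplained suffixes. A difference in calling threshold between the lists could likewise not be told apart from tissue. With no replicates, no p-value was computed, and each interval covers counting error alone.

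CTCF is a zinc finger protein that binds DNA through a long motif with a direction. Cohesin extrudes chromatin loops and halts at bound CTCF, so that CTCF sites often form loop anchors and borders of topologically associating domains. Gene deserts are long stretches without annotated genes. Many lie beside genes for developmental transcription factors or for neural adhesion molecules and contain enhancers that act over long distances, and CTCF sites in such stretches can separate or connect distant enhancers and promoters.

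The genes of the table left 1147 gaps longer than 200 kb between neighbouring genes. With 100 kb removed at each side, these gaps held 180.7 Mb, or 7.52% of the autosomal sequence considered. The remaining desert stretches ranged from 0.038 kb to 1268 kb, with a median of 98.5 kb. All but 1 MGE peak beyond the last gene of its chromosome lay in such a stretch. For 548 of 1164 MGE desert peaks (47.1%) and 153 of 411 telencephalon desert peaks (37.2%), the nearest annotated gene was a pseudogene. A protein-coding gene was nearest for 153 (13.1%) and 80 (19.5%), and a long non-coding RNA gene for 299 (25.7%) and 118 (28.7%). Median distances from the nearest gene were 164 kb in MGE and 146 kb in telencephalon, and the greatest were 692 kb and 599 kb.

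The MGE list was richer in desert peaks than the telencephalon list, although it was the shorter list overall. It held 6.44 desert peaks per Mb (interval 6.07 to 6.82), and the telencephalon list held 2.27 (2.06 to 2.51). The number of desert peaks was 2.83-fold higher in the MGE list. Within 100 kb of genes the order was the opposite, with 10.3 intergenic MGE peaks per Mb (10.1 to 10.5) and 12.3 in telencephalon (12.1 to 12.6). The change of order lay within this near-gene sequence: at 10 to 50 kb the lists held 8.40 (8.13 to 8.66) and 8.87 (8.60 to 9.14) peaks per Mb, and at 50 to 100 kb MGE was already the higher, at 6.36 (6.0 to 6.7) against 3.84 (3.56 to 4.14). Inside genes the values were 11.0 in MGE (10.8 to 11.2) and 15.1 in telencephalon (14.9 to 15.3). Desert density was therefore 0.624 of the near-gene intergenic density in MGE and 0.184 of it in telencephalon. Every autosome had more MGE than telencephalon desert peaks. The number per chromosome ran from 19 on chromosome 19 to 117 on chromosome 1 in MGE, and from 7 on chromosome 7 to 43 on chromosome 1 in telencephalon. In the MGE list the density was lowest on chromosome 9, at 4.76 peaks per Mb of desert, and highest on chromosome 14, at 8.56. The corresponding telencephalon values were 1.20 on chromosome 18 and 3.33 on chromosome 19. Without the peaks at the narrowest width of each list, 572 MGE and 356 telencephalon desert peaks remained, and with distances taken from protein-coding genes alone the numbers were 4320 and 2544. The list lengths differ, read depth is not known from peak lists, and the part of kit or calling limit in this contrast was not tested.

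**Figure D1:**
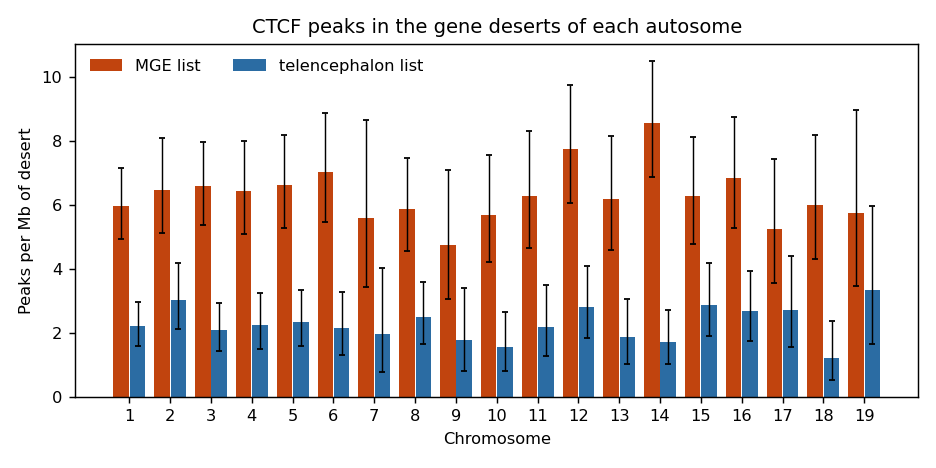
Desert CTCF peaks per Mb of desert sequence (y axis) on each autosome (x axis), MGE list in orange and telencephalon list in blue, bars with exact 95% Poisson intervals of the counts. The MGE bar is the higher of the pair on all 19 autosomes, from 4.76 on chromosome 9 to 8.56 on chromosome 14.

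Few desert peaks were common to both tissues. Shared peaks are those with 1 bp or more in common with a peak from the other tissue. In the MGE list 105 of 1164 desert peaks were shared (9.02%, interval 7.44 to 10.8%), against 59.2% of all autosomal MGE peaks and 61.7% of those outside deserts. In the telencephalon list 105 of 411 were shared (25.5%, 21.4 to 30.1%), against 47.4% of all autosomal telencephalon peaks and 47.7% of those outside deserts. All 105 shared pairs had both partners in a desert. Since the telencephalon list held 411 desert peaks, the MGE share could not have passed 35.3% had each of them had its own MGE partner. Deserts held 0.712% of all shared MGE peaks (0.583 to 0.862%), 10.4% of unshared MGE peaks (9.85 to 11.0%) and 1.87% of unshared telencephalon peaks (1.67 to 2.09%). Beside the 7.52% of sequence that deserts make up, the shared set and the unshared telencephalon set were under-represented and the unshared MGE set was over-represented.

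The 3 sets followed different courses with distance from genes. The density of shared MGE peaks was 20.8 per Mb within 1 kb of a gene, 4.09 at 10 to 50 kb, 1.48 at 50 to 100 kb and 0.608 at 100 to 200 kb. At 200 to 300 kb and 300 to 500 kb they stood at 0.457 and 0.727 per Mb, based on 17 and 13 peaks. Unshared telencephalon peaks were likewise densest near genes, with 17.4 per Mb within 1 kb, 2.36 at 50 to 100 kb, 1.93 at 100 to 200 kb and 1.08 at 200 to 300 kb. Farther out they stood at 1.34 per Mb at 300 to 500 kb (24 peaks) and 1.72 beyond 500 kb (4 peaks). Unshared MGE peaks had the opposite order, with 3.84 per Mb within 1 kb, 4.30 at 10 to 50 kb, 4.88 at 50 to 100 kb, 5.52 at 100 to 200 kb and 6.32 at 200 to 300 kb. At 300 to 500 kb they reached 6.71 per Mb, and beyond 500 kb they reached 9.45, based on 22 peaks in 2.33 Mb. From near-gene to desert sequence the unshared MGE density was 1.39-fold higher, whereas the shared density was 0.0953 and the unshared telencephalon density 0.272 of the near-gene value. No shared peak lay beyond 500 kb, where the lists held 22 and 4 peaks. The upper limits of the exact intervals of these 0 shared peaks were 15.4% and 60.2%.

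**Figure D2:**
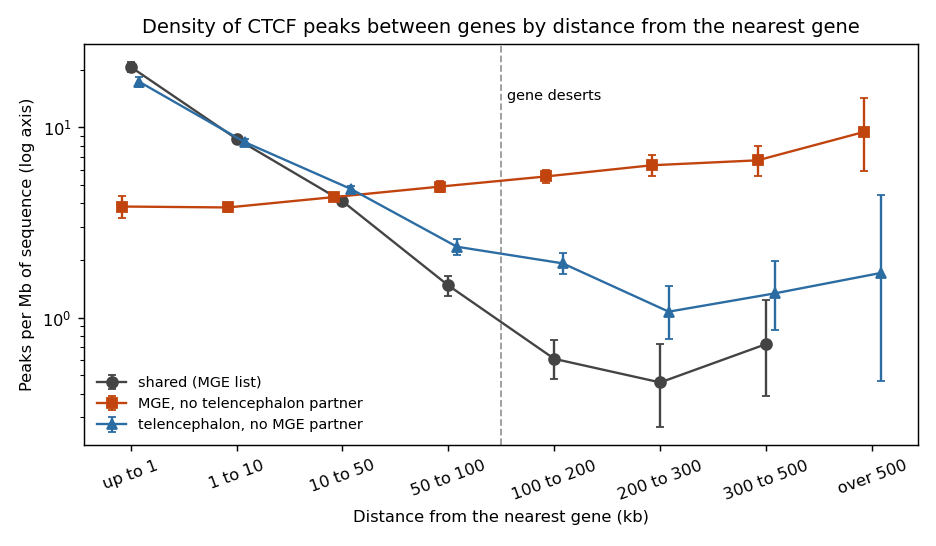
Peaks per Mb of intergenic autosomal sequence (y axis, log scale) by distance from the nearest gene in kb (x axis) for shared peaks of the MGE list (black), unshared MGE peaks (orange) and unshared telencephalon peaks (blue), with exact 95% Poisson intervals and deserts to the right of the dashed line. Shared peaks go from 20.8 to below 1 per Mb, while unshared MGE peaks go from 3.84 to 9.45; the shared class beyond 500 kb has 0 peaks and is not drawn.

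The limit of 100 kb cut through a gradual change. The MGE desert peaks nearest above it lay 100.05, 100.07 and 100.2 kb from a gene, were 370, 297 and 244 bp wide and had no partner. The MGE peaks nearest below it lay 99.96, 99.89 and 99.86 kb away, were 244, 244 and 351 bp wide and also had none. In the telencephalon list the nearest above were at 100.7, 100.8 and 100.9 kb (219, 245 and 293 bp, none shared). The nearest below were at 99.76, 99.71 and 99.57 kb (150, 511 and 221 bp), and the 511 bp peak was shared. In the 5 kb below the limit 8 of 74 MGE and 8 of 30 telencephalon peaks were shared, and in the 5 kb above it 5 of 57 and 6 of 22.

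Desert peaks were narrow. Width is the only property of a peak that the lists give, which have 3 columns for chromosome, start and end. MGE desert peaks had a median width of 244 bp, the narrowest width in that list (interquartile range 244 to 313 bp), against 305 bp outside deserts. At this narrowest width stood 592 of 1164 desert peaks (50.9%, interval 47.9 to 53.8%) and 27.2% of other MGE peaks. Telencephalon desert peaks had a median of 225 bp (167 to 290 bp), against 279 bp elsewhere, and 55 of 411 (13.4%, 10.2 to 17.1%) stood at the narrowest width of 150 bp, against 5.59% of others. Shared MGE peaks had a median of 328 bp in deserts and 346 bp elsewhere. Unshared MGE peaks had a median of 244 bp in both places, with 54.9% and 56.2% at the narrowest width. In telencephalon the medians were 303 and 348 bp for shared and 195.5 and 223 bp for unshared peaks, and 17.6% of unshared desert peaks stood at the narrowest width against 10.1% of unshared peaks elsewhere. In the MGE list, narrowest peaks made up a like part of unshared peaks in both places, and the unshared part was larger in deserts.

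**Figure D3:**
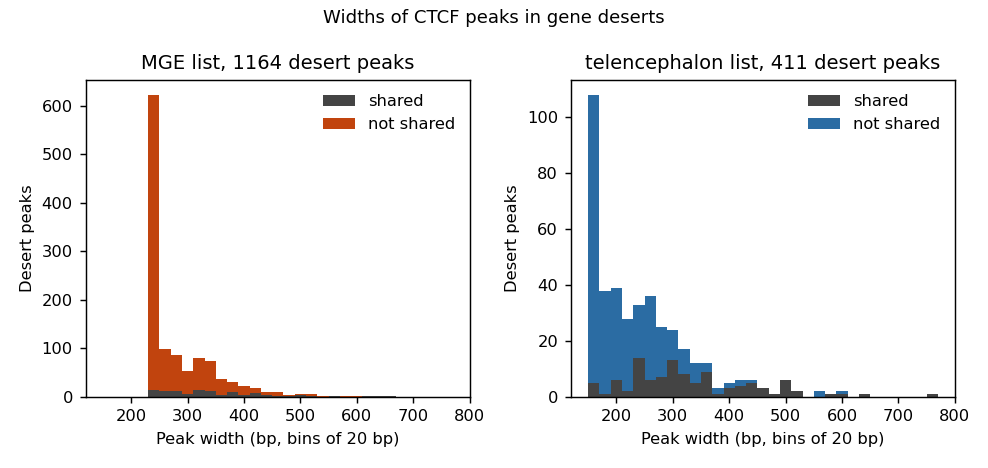
Number of desert peaks (y axis) by peak width in bins of 20 bp (x axis) in the MGE list (left) and the telencephalon list (right), stacked with shared peaks in black and unshared peaks in colour. The leftmost MGE bin contains the 592 peaks of 244 bp, of which 11 are shared, while shared peaks form most of the wide telencephalon peaks.

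Equal width did not bring equal sharing in the MGE list, nor in the telencephalon list below its widest class. The quartiles of all widths of a list divided it into 4 classes, with ties placed in the narrower class. Among MGE peaks of 244 bp, 11 of 592 desert peaks were shared (1.86%, interval 0.931 to 3.30%) and 21.0% of others. At 245 to 302 bp the shares were 10.9% (7.33 to 15.5%) in deserts and 61.7% elsewhere, and at 303 to 377 bp they were 16.4% (11.8 to 21.9%) and 77.1%. Of the 99 MGE desert peaks of 378 bp or more, 30 were shared (30.3%, 21.5 to 40.4%), against 89.7% of the equally wide peaks elsewhere (89.0 to 90.5%). In the telencephalon list the widest class, 380 bp or more, had 29 of 38 desert peaks shared (76.3%, 59.8 to 88.6%), and the interval contained the 80.1% found elsewhere. At 279 to 379 bp the telencephalon shares were 47.6% (36.4 to 58.9%) and 63.7%, at 207 to 278 bp 23.9% (16.4 to 32.8%) and 34.9%, and at 150 to 206 bp 5.62% (2.73 to 10.1%) and 11.5%. In these narrower classes the desert intervals lay below the share found elsewhere. Unshared MGE peaks of the widest class had a density of 0.382 per Mb in deserts (0.297 to 0.483), 0.290 between genes within 100 kb (0.258 to 0.325) and 0.273 in genes (0.244 to 0.304). For unshared telencephalon peaks of the widest class these densities were 0.0498 (0.0228 to 0.0946), 0.629 (0.582 to 0.680) and 0.747 (0.699 to 0.798).

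**Figure D4:**
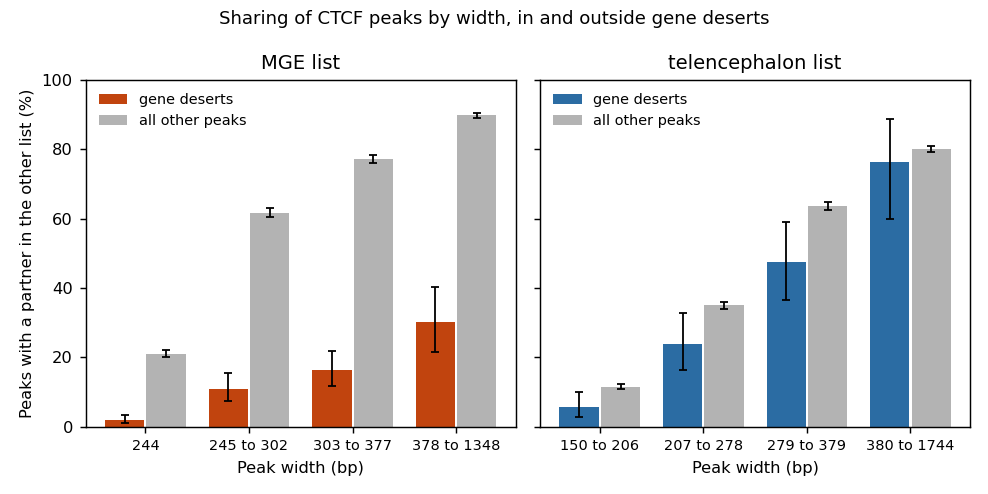
Percent of peaks with a partner in the other list (y axis) in 4 width classes in bp (x axis), for desert peaks (coloured) and all other autosomal peaks (grey) of the MGE list (left) and the telencephalon list (right), with exact 95% Clopper-Pearson intervals. In the widest class 30.3% of MGE desert peaks and 89.7% of other MGE peaks have a partner, against 76.3% and 80.1% in telencephalon.

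Where desert peaks were shared, their positions matched closely. The midpoints of the 105 pairs lay a median of 37.5 bp apart (interquartile range 16 to 71.5 bp, greatest 172.5 bp). The overlap covered a median of 84.1% of the MGE peak and 91.5% of the telencephalon peak. Shared peaks lay a median of 152 kb from the nearest gene of any kind and 308 kb from the nearest protein-coding gene. The farthest from a protein-coding gene was at 1606 kb. The distance from unshared peaks to the other list was measured between midpoints. Of 1059 unshared MGE desert peaks, 7 had a telencephalon midpoint within 1 kb (0.661%) and 57 within 10 kb (5.38%), and their median distance to the nearest telencephalon peak was 182 kb. Of 306 unshared telencephalon desert peaks, 5 had an MGE midpoint within 1 kb (1.63%) and 43 within 10 kb (14.1%), with a median of 63.4 kb. Outside deserts the shares within 1 and 10 kb were 2.48 and 17.0% of unshared MGE peaks and 4.73 and 30.0% of unshared telencephalon peaks, with medians of 47.8 and 22.2 kb.

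Desert peaks were also sparse within their own list. The nearest peak of the same list lay a median of 51.3 kb away in MGE and 111 kb away in telencephalon, against 25.3 kb and 12.7 kb for peaks outside deserts. A neighbour within 10 kb was found for 177 of 1164 MGE desert peaks (15.2%, interval 13.2 to 17.4%) and 48 of 411 telencephalon desert peaks (11.7%, 8.74 to 15.2%). Outside deserts these shares were 27.5% and 44.1%.

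The 5 shared pairs with the largest summed width are given by position, chosen for that width. The first lay at chr5:12029972-12030408 (437 bp) in MGE and chr5:12029783-12030536 (754 bp) in telencephalon, between 4933402N22Rik and Sema3d, which encodes a secreted semaphorin. A second lay at chr2:138033303-138033759 (457 bp) and chr2:138033069-138033714 (646 bp), 917 kb from Jag1, which encodes a Notch ligand, and 223 kb from Btbd3. Another lay at chr8:40150871-40151263 (393 bp) and chr8:40150882-40151481 (600 bp), 128 kb from Fgf20, which encodes a fibroblast growth factor. The MGE peak at chr13:52352565-52353198 (634 bp), between Gadd45g and Diras2, overlapped a telencephalon peak of 357 bp. The peaks at chr8:89850003-89850495 (493 bp) and chr8:89849995-89850481 (487 bp), between Sall1, which encodes a zinc finger transcription factor, and Tox3, had midpoints 11 bp apart.

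The widest unshared MGE desert peaks were 555 to 665 bp wide, and the nearest telencephalon peak was between 81.2 and 486 kb away. The widest lay at chr14:89100022-89100686 between the protocadherin genes Pcdh20 and Pcdh9. Another, of 617 bp, lay at chr16:64064425-64065041, 201 kb from Epha3, which encodes an ephrin receptor, and a peak of 555 bp lay at chr4:71953432-71953986, 156 kb from Tle1, which encodes a transcriptional co-repressor. The remaining peaks, at chr15:70303210-70303803 between Khdrbs3 and Fam135b and chr14:9080496-9081078 between Cfap20dc and Fhit, were 594 and 583 bp wide. The widest unshared telencephalon desert peaks were 429 to 596 bp wide. They lay between the sortilin-family receptor genes Sorcs3 and Sorcs1 (chr19:49539441-49540036, 596 bp), between Tecrl and the ephrin receptor gene Epha5 (chr5:83484185-83484745, 561 bp) and between Fbxl7 and Ank (chr15:27189580-27190139, 560 bp). The other two lay between B020011L13Rik and Tsn (chr1:118012842-118013274, 433 bp) and between Adamts5 and N6amt1 (chr16:86419474-86419902, 429 bp), the last with an MGE midpoint 1.39 kb away.

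Of the 5 peaks of each list farthest from any gene, 1 was shared. In the MGE list 4 of the 5 farthest lay in the same desert between Epha7, an ephrin receptor gene, and Map3k7. They included the farthest, at chr4:29888110-29888440 (331 bp, 692 kb from the nearest gene), and 3 peaks of 244 bp at 607 to 648 kb. The other, at chr15:15150647-15150969 (323 bp, 627 kb), lay between the cadherin genes Cdh6 and Cdh9. In the telencephalon list the farthest lay between Lcorl and Slit2, which encodes a secreted guidance cue, at chr5:47014462-47014641 (180 bp, 599 kb) and chr5:46980424-46980759 (336 bp, 565 kb). Next came peaks of 150 and 155 bp between Cdh6 and Cdh9 at 548 and 540 kb. The fifth, at chr1:141961798-141962042 (245 bp, 493 kb), lay between the potassium channel gene Kcnt2 and Cdc73. It was shared with an MGE peak of 267 bp whose midpoint was 9 bp away, and no other shared peak lay as far from a gene.

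Counted desert by desert, 519 of 1147 deserts had an MGE peak (45.2%, interval 42.3 to 48.2%) and 282 had a telencephalon peak (24.6%, 22.1 to 27.2%). Both lists had a peak in 211 deserts, MGE without telencephalon in 308, telencephalon without MGE in 71 and neither in 557. A shared peak was present in 91 deserts (7.93%), with 79 of them holding 1 shared peak, 10 holding 2 and 2 holding 3. Empty deserts were short, with a median of 44.6 kb, whereas deserts with peaks in both lists had a median of 252 kb. Of the 110 deserts with more than 400 kb left after trimming, 108 had an MGE peak (98.2%) and 68 a telencephalon peak (61.8%). MGE density was 6.79 peaks per Mb in deserts of up to 50 kb, 5.62 at 50 to 100 kb and 6.99 above 400 kb. Telencephalon density was 3.46, 2.27 and 1.85 in the same classes. The longest gaps with no peak in their desert part lay between 1700015G11Rik and Luzp2 (640 kb), Adgra3 and Ppargc1a (601 kb) and Immp2l and Dnajb9 (552 kb). A desert without a listed peak is not shown to lack CTCF.

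The 10 deserts with most peaks held 82 MGE and 30 telencephalon peaks, of which 9 pairs in 4 deserts were shared. At the narrowest width of their list stood 35 of the 82 MGE peaks and 5 of the 30 telencephalon peaks. Each desert lay in a gap between neighbouring genes of any type. Its name gives the nearest protein-coding genes, which can lie far beyond the gap. Further deserts can lie between the same protein-coding genes, and the counts cover the desert part of the named gap alone. A gap between Cdh6 and Cdh9 (chr15:14466670-15778113, 1311 kb) had 9 MGE and 4 telencephalon peaks and none shared. Outside this gap, a shared desert peak lay between the same genes at chr15:14137551-14137794 in MGE. The longest gap of all (chr4:29196279-30664595, 1468 kb) covered part of the sequence between Epha7 and Map3k7 and had 11 MGE peaks and 0 in telencephalon. All deserts that Map3k7 flanked together held 14 MGE and 2 telencephalon peaks. A gap between Olfm4 and the protocadherin gene Pcdh17 (chr14:82122227-83405630, 1283 kb) had 10 and 1. Gaps between Lcorl and Slit2 (1219 kb), between Stim2 and Pcdh7 (915 kb) and between Igfbp7 and the latrophilin gene Adgrl3 (795 kb) had 9 and 2 each. None of these peaks was shared. Outside the 795 kb gap, shared desert peaks lay between Igfbp7 and Adgrl3 at chr5:77803615-77803858 and chr5:77807614-77808134 in MGE. A gap between D3Ertd751e and Pcdh10 (1272 kb), whose desert part was among the 5 longest, had 8 and 2 with 1 shared. A further shared desert peak between these genes lay outside it, at chr3:44912672-44912973 in MGE.

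The remaining 3 deserts had more telencephalon peaks and shared pairs than the deserts described above. A desert between Kcnt2 and Cdc73 (chr1:141298207-142455039, 1157 kb) had 8 MGE and 5 telencephalon peaks, with 3 shared pairs. A gap between Sall1 and Tox3 (chr8:89667305-90247109, 580 kb) had 5 MGE and 6 telencephalon peaks, also with 3 shared pairs. Its shared pairs were 353 and 441 bp, 493 and 487 bp, and 262 and 398 bp wide. Their MGE peaks lay 741 to 957 kb from Sall1 and 246 to 462 kb from Tox3. The 6 telencephalon peaks amount to 15.8 per Mb, in a desert chosen for its number of peaks. A gap between the heparan sulphate enzyme gene Hs3st1 and Rab28 (chr5:40405930-41342102, 936 kb) had 4 and 6 peaks, with 2 shared pairs. In its desert all peaks of both lists lay within a stretch between 217 and 389 kb from the nearest gene. Across the 10 deserts the MGE list had more peaks in 8, and the 2 named by Sall1 and by Hs3st1 were the exceptions.

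**Figure D5:**
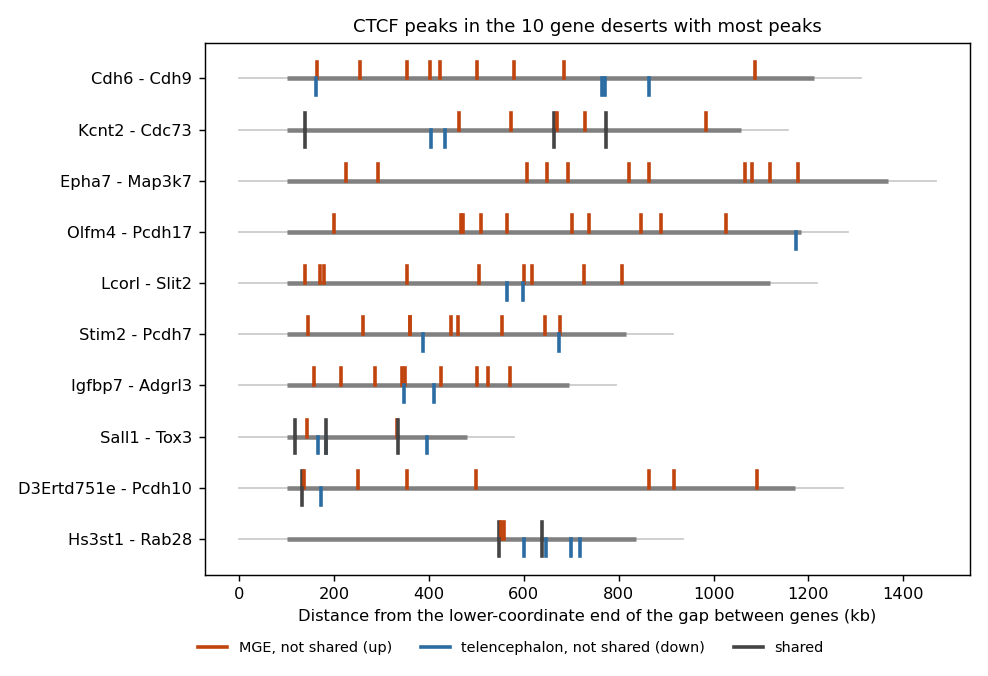
Positions of CTCF peaks in the 10 deserts with most peaks, each named by its nearest protein-coding genes (y axis), against distance from the lower-coordinate end of the gap in kb (x axis); thick grey lines mark the part more than 100 kb from genes. Ticks upward are MGE peaks (orange) and downward telencephalon peaks (blue), with shared peaks in black. The genes in a name can lie far beyond the gap. The desert named by Epha7 and Map3k7 has 11 MGE peaks and 0 telencephalon peaks, and that named by Sall1 and Tox3 has 3 shared pairs.

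Genes next to deserts were examined as the nearest protein-coding genes on either side, at whatever distance, so a peak is described beside a gene and not assigned to it. Of 20665 autosomal protein-coding genes, 1143 were such flanking genes. A desert with an MGE peak was flanked by 612 of them (53.5%), a desert with a telencephalon peak by 432 (37.8%) and a desert with a shared peak by 171 (15.0%). Genes in lists below were chosen with earlier results of these data known, and neighbours can flank the same desert.

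Adhesion and guidance genes form synapses and steer axons, and many are very long genes beside long deserts. Of 85 listed autosomal genes, 66 flanked a desert (77.6%, interval 67.3 to 86.0%), against 5.53% of all protein-coding genes. Their deserts summed to a median of 840 kb per gene, against 145 kb for all flanking genes. An MGE peak was present in the deserts of 54 of 66 (81.8%, 70.4 to 90.2%), a telencephalon peak in those of 42 (63.6%, 50.9 to 75.1%) and a shared peak in those of 26 (39.4%, 27.6 to 52.2%). Per Mb of desert the list stood near all flanking genes, at 7.15 against 6.44 MGE peaks, 1.87 against 2.27 telencephalon peaks and 0.567 against 0.581 shared peaks. The larger share of occupied genes went together with longer deserts.

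Among these genes, Lrrc4c, a postsynaptic adhesion gene, flanked deserts with 24 MGE and 7 telencephalon peaks, 3 of them shared. Pcdh10, a delta protocadherin gene, had 19 and 6 with 3 shared. The cadherin genes Cdh8 and Cdh9, which mark classes of neurons, had 17 and 7 and 14 and 8, with 2 shared each, and Cdh20 had 7 and 3 with 2 shared. A gap between the cell adhesion genes Cntn3 and Chl1 (chr6:102862476-103510583) had 3 MGE and 4 telencephalon peaks, with 2 shared pairs at 309 and 204 kb from Chl1. Adgrl3 (23 and 7), Cadm2 (11 and 6), Flrt2 (16 and 4) and Cntnap5b (10 and 4) each flanked deserts with 2 shared peaks. Adhesion genes that flanked deserts with 1 shared peak each included Cdh6, Cdh10, Cdh11, Cdh12, Cdh18, Cdh19, Cntn5, Csmd3, Dcc, which encodes a netrin receptor, Epha4, Pcdh9, Pcdh20, Sema3d and Tenm3. Genes with many MGE peaks and few in telencephalon were named after their values were seen: Pcdh17 had 31 and 5, Epha7 20 and 2, Ncam2 17 and 2, Ctnna2 14 and 1, and Slitrk1 and Cntnap5a 10 and 0 each, with no shared peak.

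Forebrain transcription factor genes flanked deserts in 34 of 88 cases (38.6%, interval 28.4 to 49.6%), against 5.53% of all protein-coding genes. These 34 genes had a median of 109 kb of desert. An MGE peak was present for 15 of the 34 (44.1%, 27.2 to 62.1%), a telencephalon peak for 14 (41.2%, 24.6 to 59.3%) and a shared peak for 5 (14.7%, 4.95 to 31.1%). These intervals contain the 53.5%, 37.8% and 15.0% of all flanking genes. Both lists had a peak for 10 genes, MGE without telencephalon for 5, telencephalon without MGE for 4 and neither for 15.

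The 5 transcription factor genes beside a shared desert peak were Zeb2, Sox2, Sox11, Nfia and Satb1. Sox2, which maintains neural progenitors, had a single desert peak in each list, at chr3:35103301-35103569 (269 bp) in MGE and chr3:35103114-35103558 (445 bp) in telencephalon, 451 kb from the gene. Satb1, a chromatin organiser of MGE-derived interneurons, had a shared peak 629 kb away, with the other flanking gene, Kcnh8, nearer at 141 kb. The pair lay at chr17:52461788-52462132 (345 bp) and chr17:52461806-52462132 (327 bp). Both peaks end at the same base, and a further telencephalon peak of 191 bp lay on the other side of Satb1. Nfia, a factor of glial differentiation, had a shared peak 540 kb away at chr4:97037694-97037975 (282 bp) and chr4:97037683-97038015 (333 bp), and 2 further MGE peaks of 244 bp. The other flanking gene, Gm12695, was nearer the shared peak, at 251 kb. Sox11, a factor of immature neurons, had a shared peak 906 kb away at chr12:28248733-28249070 (338 bp) and chr12:28248775-28249241 (467 bp). This peak was nearer the other flanking gene, Dcdc2c, at 189 kb.

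Zeb2, which directs MGE-derived cells to a cortical interneuron fate, flanked 5 deserts towards Acvr2a with 9 MGE and 4 telencephalon peaks. The shared pairs were chr2:47466134-47466644 (511 bp) with chr2:47466161-47466314 (154 bp), and chr2:47491830-47492157 (328 bp) with chr2:47491911-47492151 (241 bp). They lay 2349 and 2375 kb from Zeb2 and 1348 and 1322 kb from Acvr2a. The remaining telencephalon peaks there were 150 bp wide, the narrowest width of that list, while unshared MGE peaks included widths of 352, 397 and 494 bp.

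Other transcription factor genes, named after their values were seen, had peaks of a single list or none shared. Isl1, a regulator of striatal neurons, flanked 4 deserts with 8 MGE peaks and 0 in telencephalon, among them peaks of 455 bp at chr13:115981822-115982276 and 343 bp at chr13:115650733-115651075. Nr2f1, a factor of the caudal eminence and cortical areas, flanked deserts with 6 and 2 peaks. In the opposite direction, Meis2, a striatal and olfactory bulb factor, had 2 telencephalon peaks of 284 and 225 bp and 0 in MGE. Sox9, a progenitor and glial factor, also had 2 (250 and 204 bp, at 790 and 257 kb) and 0. The counts per gene are small, and no difference between the tissues was tested.

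Signalling genes flanked deserts in 21 of 77 cases (27.3%, interval 17.7 to 38.6%), against 5.53% of all protein-coding genes. An MGE peak was present for 10 of 21 (47.6%, 25.7 to 70.2%), a telencephalon peak for 8 (38.1%, 18.1 to 61.6%) and a shared peak for 3 (14.3%, 3.05 to 36.3%), and these intervals also contain the values of all flanking genes. Fgf20 had 3 MGE and 2 telencephalon peaks, with 2 shared pairs, in a desert of 60.9 kb, at 146 and 128 kb from the gene. They measured 377 and 492 bp at chr8:40132933-40133309 and chr8:40132959-40133450, and 393 and 600 bp at the position given above. Erbb4, the neuregulin receptor of migrating interneurons, had a shared peak 133 kb from its upper end at chr1:69241703-69242122 (420 bp) and chr1:69241752-69242049 (298 bp). On its other side it had unshared peaks, 264 and 244 bp in MGE and 218 and 150 bp in telencephalon. Jag1 had 4 MGE and 3 telencephalon peaks with 1 shared. At the deserts of Bmp2, which encodes a bone morphogenetic protein, there were 1 MGE and 2 telencephalon peaks and none was shared.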

How the data were processed

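CTCF ChIP-seq peak lists of 2 libraries were used, 1 from the telencephalon and 1 from the MGE. The 2 input libraries are not analysed here. Per the labels' protocols, CTCF was recovered from sonicated chromatin with an antibody raised in rabbit. The submitters' processing notes name Bowtie2 (version 2.3.2), MACS2 (version 2.1.1.20160309) and build mm10. For the calling threshold, control and filters the sources used here give nothing. The track names in the file headers end in a different suffix in each of the 2 lists. This suffix is not explained, and whether both lists were called at the same threshold is unknown. The telencephalon track name also begins with e14, while its label gives embryonic day 13.5. The authors' deposited lists give chromosome, start and end, with no score, so sequencing depth is unknown.

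Midpoints were set against genes of RefSeq (GRCm38.p6, whose chromosome coordinates equal those of mm10). Its 333 autosomal rows on scaffolds changed no assignment. Sequence lengths run from 3 Mb, where the assembled chromosomes begin, to the last gene. Coordinates are 1-based. Shares have exact Clopper-Pearson intervals and densities exact Poisson intervals (scipy 1.17.1), at 95%. The procedures were tested on simulated peaks. Named regions are the 10 deserts with most peaks, the 5 longest, the 5 widest shared and unshared peaks, the 5 farthest from genes, the 3 on each side of the limit, and listed genes beside a shared peak (also where more than 20 qualified; values of some listed genes are not reported here); other genes are marked as named after their values were seen. The members and lists were chosen with earlier results of these data known. No genome sequence was used, so no motif was sought. Alternatives covered the partner rule, gene types, distance limits, peak width, list length and chromosomes.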

Additional observations from a re-analysis of the deposited data

How the results depend on the processing

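The MGE list had the larger number, list share and density of desert peaks, more occupied deserts and more flanking genes with a peak in 8 of 8 settings. Its shared share was the lower in 10 of 10. Shared peaks form pairs that count in both lists, 105 in each in the main setting. The order of the shared share therefore largely repeats that of peak number and is no separate result. In the setting of equal list length only the telencephalon list was cut. Its peak number, density, occupied deserts and flanking genes could not rise there, so their order was fixed in advance. Desert peaks of the MGE list had the larger median width in 7 of 8 settings, but no MGE peak is narrower than 244 bp, whereas telencephalon peaks start at 150 bp. Wherever the telencephalon median was below 244 bp, this order was therefore fixed in advance. With lists of equal length the order was the opposite, at 244 bp for MGE and 268 bp for telencephalon. Widths are thus not comparable between the lists, and no conclusion on the tissues is drawn from this count. For transcription factor and signalling genes the MGE count was the higher in 5 of 8 settings each. Values below are given for MGE, then telencephalon.

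With protein-coding genes alone, desert peaks numbered 4320 and 2544 (17.4 and 8.17% of the lists; 3.77 per Mb in telencephalon), 19.9 and 34.2% were shared, median widths were 250 and 237 bp, 47.8 and 9.63% stood at the narrowest width, 896 and 814 deserts were occupied, and 1560 and 1449 flanking genes had a peak.

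At a limit of 200 kb there were 407 and 98 peaks (1.64 and 0.315%; 7.09 and 1.71 per Mb), 7.37 and 30.6% shared, medians of 250 and 207.5 bp, 46.9% at the narrowest width in MGE, 177 and 67 occupied deserts and 273 and 124 genes. At 50 kb there were 2301 and 1097 peaks (9.25 and 3.52%; 3.05 per Mb in telencephalon), 16.0 and 33.6% shared, a telencephalon median of 240 bp, 1128 and 732 occupied deserts and 1181 and 1030 genes.

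Without the narrowest peaks, MGE had 572 peaks (3.21% of its list), 16.4% of them shared, densities were 3.17 and 1.97 per Mb and medians 313.5 and 239.5 bp. Occupied deserts then numbered 353 and 249, and flanking genes with a peak 454 and 395. In the wider 50% of each list there were 325 and 120 peaks (2.62 and 0.774%; 1.80 and 0.664 per Mb), 20.6 and 56.7% shared, medians of 345 and 337.5 bp, 249 and 99 occupied deserts and 344 and 188 genes. The share at the narrowest width has no value in these settings. With the telencephalon list shortened to the widest peaks so that both lists had equal length, it had 259 peaks (1.04%; 1.43 per Mb), 38.2% shared, a median of 268 bp and 0.772% at the narrowest width. This shortened list occupied 194 deserts, with 341 flanking genes. The cause of these shifts was not tested, beyond the sequence or peaks each setting adds or removes.

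A reciprocal overlap of 50%, midpoints within 1 kb, adding chromosome X and leaving out chromosome 1 moved no share, density or median width of desert peaks beyond its interval. Counts have no interval. With chromosome X there were 1207 and 424 desert peaks, 551 and 295 occupied deserts and 658 and 456 flanking genes. Without chromosome 1 there were 1047 and 368 peaks, 466 and 253 deserts and 555 and 389 genes. The shared share of all autosomal peaks, 59.2 and 47.4%, was 52.7 and 42.1% with the reciprocal overlap, 60.2 and 49.8% with midpoints within 1 kb, and 58.4% in MGE with chromosome X. It was 74.6 and 45.4% without the narrowest peaks, 81.8 and 71.8% in the wider 50%, and 56.9 and 56.8% with lists of equal length. Peak lists carry no read depth, so its effect cannot be given. No paired analysis was possible because each tissue had 1 CTCF library.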
